A study of Danio rerio with 5 samples.

Results

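The small leucine-rich proteoglycans are secreted matrix proteins, and 10 zebrafish genes of this family were followed through the libraries. They were dcn, lum, kera, prelp, epyc, fmoda, fmodb, bgna, bgnb and ogna, taken by symbol from the 36351 genes of the deposited tables, and all 10 were found in every file. The cells came from zebrafish larvae at 5 days post fertilization and were isolated by fluorescence-activated sorting for a reporter of pdgfrb, the platelet-derived growth factor receptor gene used to label pericytes. Both single-cell libraries (libraries 1 and 2, 10x 3′ chemistry) held EGFP-positive cells of the Tg(pdgfrb:egfp)ncv22 strain, with no other allele named. The 3 bulk libraries (um148 libraries 1, 2 and 3, oligo-dT primed) held citrine-positive cells of the Tg(pdgfrb:citrine)s1010;pdgfb um148 strain. The sample titles call these fish um148 mutants, and the gene that carries the lesion is left unnamed here. Sorting was on the reporter alone, so each library mixes every cell type that carries it, and the labels do not say how many larvae were pooled. In a bulk library, fewer cells of a type and less RNA per cell cannot be told apart.

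Each of these proteins has a core of leucine-rich repeats that curves around collagen, and most carry chondroitin, dermatan or keratan sulfate chains. In vertebrates they sit along collagen fibrils, limit how thick the fibrils grow and set their spacing, and some bind growth factors such as TGF-beta. Decorin (dcn) and biglycan (bgna and bgnb) form class I of the family. Fibromodulin (fmoda and fmodb), lumican (lum), keratocan (kera) and prelp form class II, and epiphycan (epyc) and osteoglycin (ogna) belong to class III. Genes ending in a and b are duplicate copies of 1 ancestral vertebrate gene. Whether reads could have been assigned to the wrong copy was not tested.

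After filtering, 5653 cells of library 1 and 7358 of library 2 were kept. The limit on mitochondrial RNA removed 3976 barcodes of library 1 and 407 of library 2, and 30 barcodes occurred in both libraries. Cells were assigned to types by marker gates that contain none of the 10 genes: a cell entered a gate if it had a UMI, a counted RNA molecule, of at least 3 of that gate's markers and met no other gate. This placed 2373 cells of library 1 (42.0%) and 3170 of library 2 (43.1%), among them 1476 and 1970 in 11 connective tissue gates. No gate was met by 46.8% and 45.7% of the kept cells, and several gates by 11.2% and 11.3%. Gates are named for their markers, and cell numbers in libraries 1 and 2 were 20 and 31 for tenocytes, 11 and 23 for fibroblasts with cilp and myoc, and 24 and 26 for fibroblasts with tcf21 and foxd1. There were 479 and 619 chondrocytes, 36 and 44 osteoblasts, 266 and 404 fin fold mesenchyme cells, and 199 and 237 mesenchyme cells with dlx genes and shox. Smooth muscle held 242 and 298 cells and pericytes 149 and 221. A gate built on colec11 (10 and 14 cells) led with the water channel genes aqp8a.1 and aqp1a.1 and was given no cell type name. In the chondrocyte gate, col9a1a was in 97% and 97% of cells, ucmab in 64% and 64%, and matn1 in 42% and 41%. Shares of acana were 37% and 36% and of snorc 30% and 32%, and how far this gate mixes cells was not tested. In the pericyte gate notch3 was in 88% and 90% of cells, rgs5b in 79% and 78% and rgs5a in 71% and 77%. Shares there were 51% and 39% for kcne4, 34% and 39% for kcnj8, 23% and 21% for abcc9, and 23% and 18% for ndufa4l2a. How far the pericyte gate mixes cells was not tested either. The epidermis gate had 0 of its markers among its 10 leading genes, but led with the epithelial genes krt17, icn2 and cldne. Epidermis, neuron, skeletal muscle and endothelial gates were used as comparators, with levels only and no test.

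Levels are in CPM, the usual scaling of a gene's UMIs by the total UMIs of that gate in each library. For each gene and connective gate, edgeR's quasi-likelihood test compared that gate with the mean log level of the other 10 gates. The 2 libraries were the replicates, and p-values were Benjamini-Hochberg adjusted over the 7055 genes tested, those that passed a filter on low counts. With library as a block, the p-values rest on how differences between gates varied between these 2 libraries, pooled over the gates. The labels do not say whether the libraries came from separate sorts, so that spread may be technical. Of 110 pairs of gene and gate, 41 passed at an adjusted p under 0.05, 29 higher and 12 lower. The share of all tested genes called in a gate ran from 3.63% to 26.0% for higher and from 0.298% to 15.1% for lower. The test also used edgeR's scaling factors (TMM, trimmed mean of M-values), which the CPM levels do not include. Without them 39 of the 41 calls were kept, but the numbers called over all genes moved. They went from 1337 higher and 537 lower to 763 and 1664 in chondrocytes, and from 1831 and 1068 to 1283 and 1695 in fin fold. With a mean of logarithms and these factors, a gate can be called higher while its CPM lies below the plain average of the others. This held in at least 1 library for 7 of the 29 higher pairs. All 12 lower pairs lay below that average in both libraries.

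**Figure D1:**
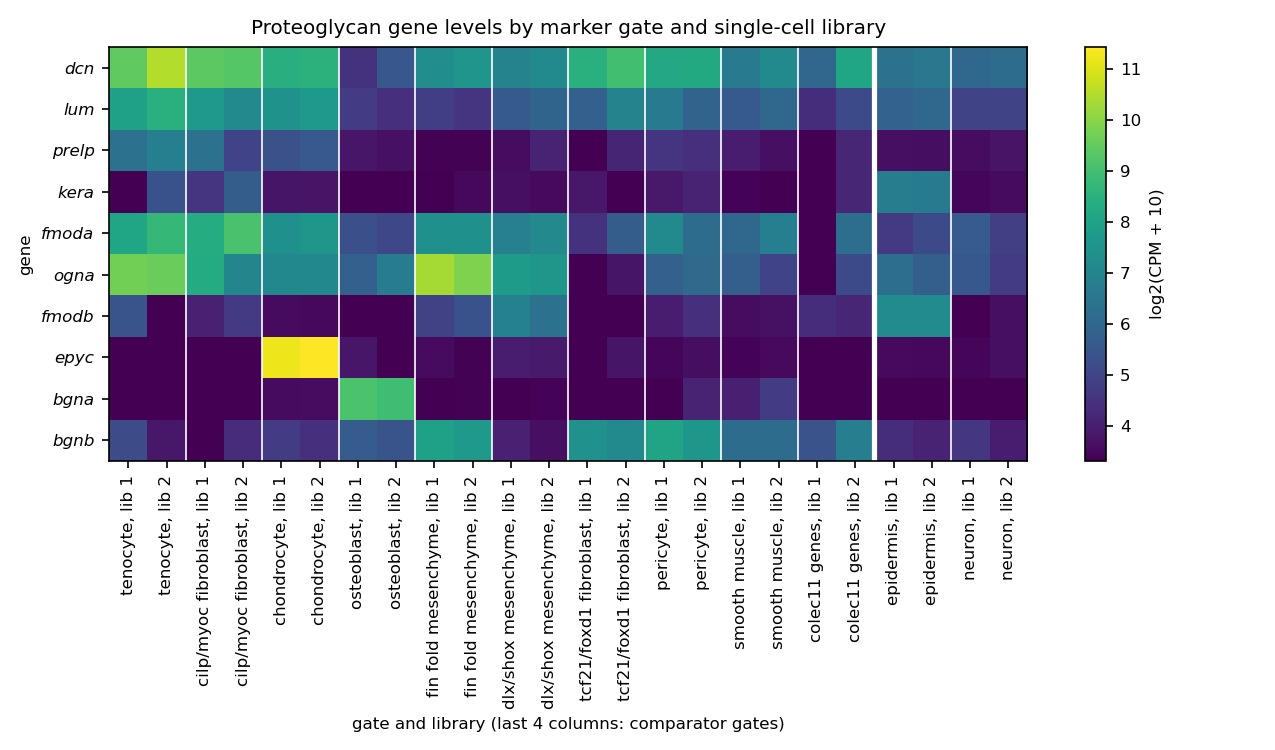
Level of each of the 10 genes (rows) in each gate shown and library (columns), as log2(CPM + 10). Columns right of the thick line are the epidermis and neuron comparators. The brightest cells are epyc in the chondrocyte gate (2359 and 2752 CPM), ogna in the fin fold gate (1275 and 915 CPM), and dcn (693 and 1420 CPM) and ogna (826 and 761 CPM) in the tenocyte gate.

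By count, higher calls were most frequent in chondrocytes, in the gate with cilp and myoc, and in tenocytes. The shares of all genes called differed between these gates. The counts include epyc in chondrocytes, which passed the filter on low counts only through its chondrocyte sums. They also include kera with cilp and myoc, which passed it only through library 2 sums of that gate and of tenocytes. These calls, and that of bgna in osteoblasts, are no separate support. In the tenocyte gate 5 of 10 were higher (dcn, lum, prelp, fmoda and ogna) and 0 lower, where 3.63% and 0.298% of all genes were called. In the gate with cilp and myoc 6 were higher (the same 5 and kera) and 0 lower, against 3.88% and 0.595%. Of these 6 calls 4 were lost with gates of 1 marker fewer (dcn, prelp, ogna and kera), and 4 without epidermal markers among the gates (lum, prelp, ogna and kera). With gates of 1 marker more, the tenocyte gate (7 and 10 cells) and the gate with cilp and myoc (2 and 3 cells) were too small to test. Tenocyte calls of prelp and ogna were lost with gates of 1 marker fewer, and that of fmoda when cells of several gates went to the gate with most markers. Chondrocytes had 6 higher and 1 lower, against 19.0% and 7.61%, and fin fold mesenchyme 4 higher and 2 lower, against 26.0% and 15.1%. The chondrocyte calls of fmoda, ogna and dcn lay below the plain average of the others in at least 1 library. They were also lost with gates of 1 marker fewer. The other connective gates had fewer calls. Fibroblasts with tcf21 and foxd1 had 2 higher and 2 lower (7.26% and 3.80% of all genes), mesenchyme with dlx genes and shox 2 and 2 (19.2% and 11.4%), and osteoblasts 1 and 3 (10.0% and 4.52%). Smooth muscle had 1 and 1 (19.1% and 7.55%), pericytes 1 and 0 (11.5% and 2.72%), and the colec11 gate 0 and 0 (5.63% and 4.71%). In the colec11 gate, the smallest by cells, 4 of the 10 had an unadjusted edgeR p under 0.05, all lower, and DESeq2 called 1.

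Genes were also counted in single cells. The median number of the 10 genes with a UMI in a cell was 3 and 4 in tenocytes (libraries 1 and 2), 3 and 2 in the gate with cilp and myoc, 2 and 2 in chondrocytes and fin fold mesenchyme, and 1 and 1 in osteoblasts, smooth muscle and pericytes. Every cell of the tenocyte gate and of the gate with cilp and myoc had a UMI of at least 1 of them. Among comparators, epidermis had a median of 2 and 2, with any of them in 70.7% and 68.1% of cells, and neurons had any of them in 13.7% and 13.4%. Depth differed between these gates, with medians of 5884 and 6366 UMIs in tenocytes against 12037 and 12425 in epidermis and 3144 and 3249 in neurons, and its part in these shares was not tested.

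Decorin, the most widely detected member, binds collagen type I fibrils. Its level in tenocytes was 693 CPM in library 1 (95% counting interval 567 to 840) and 1420 CPM in library 2 (1268 to 1585). Next came the gate with cilp and myoc at 660 and 612 CPM, fibroblasts with tcf21 and foxd1 at 345 and 492, chondrocytes at 329 and 362, and pericytes at 288 and 294. All of these lay above every value of the gates of fin fold (148 and 179 CPM), dlx genes and shox (113 and 138) and smooth muscle (88.9 and 135). The colec11 gate was split between libraries, at 53.3 and 266 CPM. Osteoblasts were the lowest connective gate, at 12.5 and 35.6 CPM from 3 and 12 UMIs. Of the comparators, skeletal muscle lay below osteoblasts, at 5.22 and 13.0 CPM. Neurons lay above osteoblasts, at 55.2 and 63.5 CPM, although 7.41% and 7.39% of neurons had a UMI and single neurons held up to 14 and 73 of them.

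In the test dcn was higher in tenocytes by 2.56 ± 0.19 (log2, standard error; edgeR adjusted p = 3.84e-09) and in the gate with cilp and myoc by 1.71 ± 0.21 (edgeR adjusted p = 2.23e-05), which fell to 0.84 with gates of 1 marker fewer (edgeR adjusted p = 0.139). It was also called higher in chondrocytes (1.11 ± 0.18), where the library 2 level lay below the plain average of the other gates, 377 CPM, and the call was lost with gates of 1 marker fewer. In fibroblasts with tcf21 and foxd1 the difference was 0.77 ± 0.22 (edgeR adjusted p = 0.0221), a call lost in 6 of the alternative settings. Osteoblasts were lower, with a log2 fold change of -3.23 ± 0.38 (edgeR adjusted p = 2.15e-06). Smooth muscle (-0.93 ± 0.22) and the gate with dlx genes and shox (-0.92 ± 0.22) were lower as well, calls lost in 3 and 2 alternative settings. In pericytes the difference, 0.29 ± 0.20, did not pass (edgeR adjusted p = 0.396).

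Biglycan is known in mammals as a proteoglycan of bone, and its 2 zebrafish copies peaked in different gates. The bgna copy stood at 552 CPM (132 UMIs) and 481 CPM (162 UMIs) in osteoblasts, with a UMI in 66.7% and 72.7% of the cells. Its next highest connective level was 6.49 and 16.9 CPM in smooth muscle, where 20 of the 34 UMIs of library 2 came from 1 cell. It had 0 UMIs in tenocytes, in the gates with cilp and myoc and with tcf21 and foxd1, and in neurons of both libraries. A count of 0 allows up to 19.8 and 13.4 CPM in tenocytes and up to 2.07 and 1.29 CPM in neurons. The osteoblast level exceeded the other gates by 9.97 ± 0.36 (log2, edgeR adjusted p = 7.03e-13), a size that depends on the many gates at or near 0. Only its osteoblast sums carried bgna through the filter on low counts, so this p-value is no separate support. Cells meeting the osteoblast gate, with other gates allowed, held 68.6% and 64.9% of all bgna UMIs but 2.07% and 1.58% of all UMIs. Smooth muscle was called higher too (3.95 ± 0.77, edgeR adjusted p = 7.94e-04), but lay below the plain average of the others in both libraries, and DESeq2 did not call it (adjusted p = 0.253).

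The bgnb copy was highest in the gate named for pericytes, the mural cells of capillaries, at 258 and 186 CPM, and in fin fold mesenchyme at 238 and 193 CPM. Those gates exchanged first place between libraries, so their order was not settled. Fibroblasts with tcf21 and foxd1 followed at 160 and 136 CPM. Smooth muscle, not divided into that of vessels and of other organs, stood at 63.0 and 62.5 CPM. Osteoblasts, the gate of the other copy, had 41.8 and 32.6 CPM from 10 and 11 UMIs. Tenocytes had 26.4 and 4.45 CPM, chondrocytes 16.4 and 11.2, and the gate with dlx genes and shox 6.77 and 2.72, near or below neurons at 14.5 and 5.58. In all, 3 gates were called higher, fin fold by 2.91 ± 0.25 (log2, edgeR adjusted p = 2.41e-09), pericytes by 2.51 ± 0.27 (edgeR adjusted p = 7.68e-07) and fibroblasts with tcf21 and foxd1 by 1.80 ± 0.40 (edgeR adjusted p = 0.00436). Lower calls were the gate with dlx genes and shox (-3.47 ± 0.65) and chondrocytes (-1.36 ± 0.42), and the chondrocyte call was lost in 2 alternative settings.

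**Figure D2:**
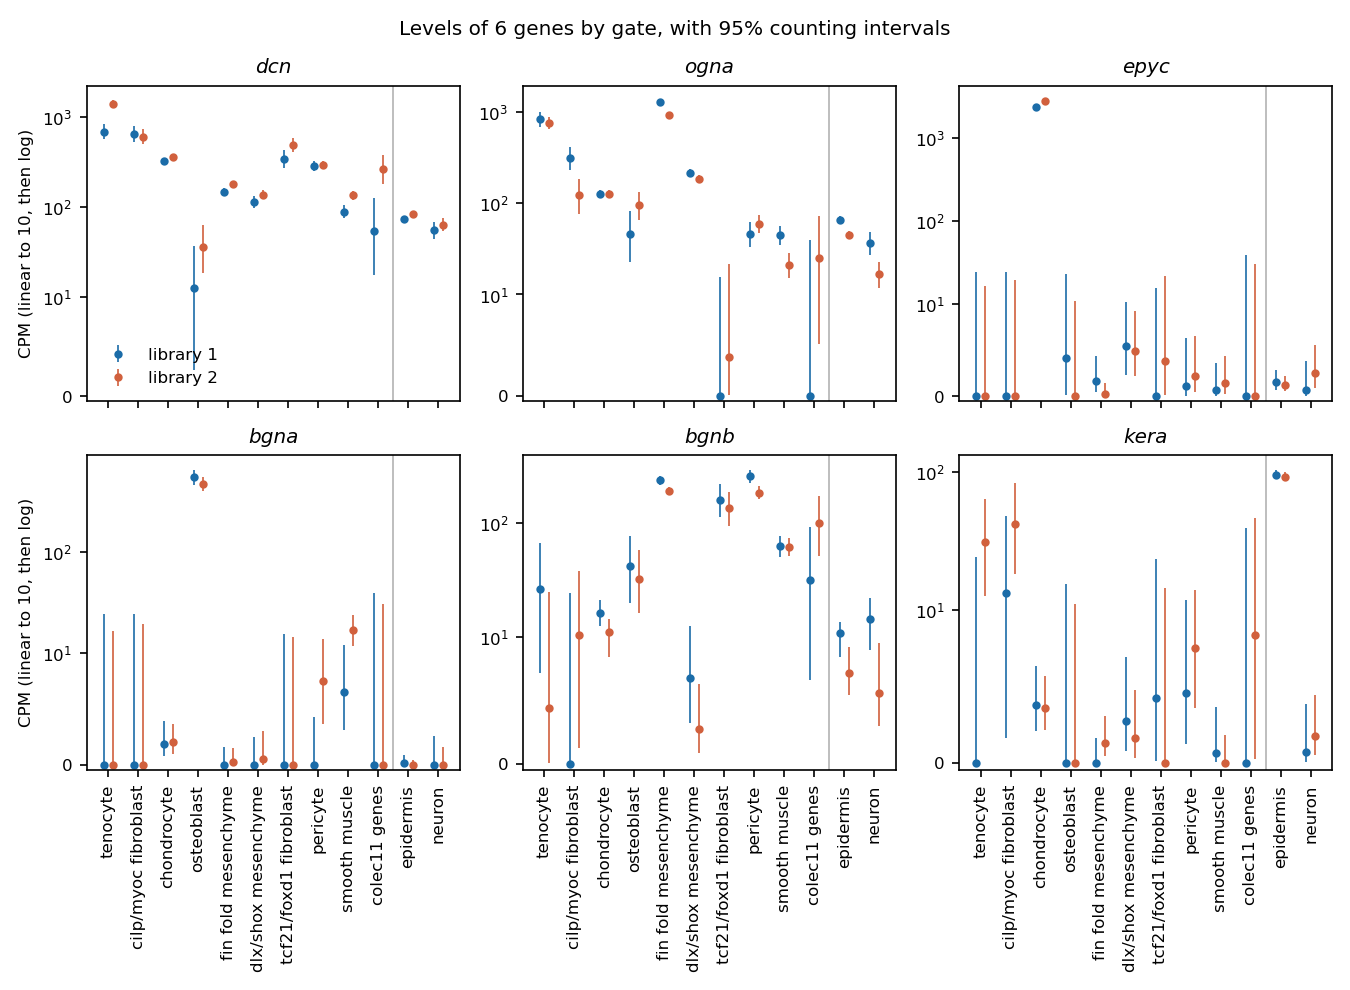
Levels of dcn, ogna, epyc, bgna, bgnb and kera in each gate shown, as CPM on an axis linear to 10 and logarithmic above, with bars for the 95% Poisson counting interval of each library. Gates right of the grey line are comparators. The osteoblast points of bgna (552 and 481 CPM) and the chondrocyte points of epyc stand apart from the other gates in both libraries, and kera is highest in the epidermis comparator.

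Fibromodulin binds collagen type I and, with lumican, is known in mouse tendon for its effect on fibril growth. Among the gates shown, fmoda stood at 317 and 538 CPM with cilp and myoc and at 271 and 410 CPM in tenocytes, and these values overlapped. Chondrocytes (159 and 184 CPM), fin fold (157 and 158) and the gate with dlx genes and shox (105 and 131) were lower and close together. Pericytes had 134 and 62.3 CPM, and fibroblasts with tcf21 and foxd1, which were among the higher gates for dcn, had 12.6 and 42.6. Neurons stood at 40.0 and 19.3 CPM, like osteoblasts at 29.3 and 23.7. The test called the gate with cilp and myoc (2.09 ± 0.31, edgeR adjusted p = 1.94e-04) and tenocytes (1.83 ± 0.32, edgeR adjusted p = 0.00115) higher. The tenocyte call was lost when cells of several gates went to the gate with most markers (1.26, edgeR adjusted p = 0.0542). Osteoblasts (-2.16 ± 0.54) and fibroblasts with tcf21 and foxd1 (-2.49 ± 0.54) were lower. Chondrocytes (1.02 ± 0.25) and fin fold (0.78 ± 0.26) were also called higher, though in library 2 both lay below the plain average of the others, and both calls were lost in some alternative settings.

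The fmodb copy had another pattern. Among connective gates it was highest in mesenchyme with dlx genes and shox, at 108 and 72.9 CPM, followed by fin fold at 19.7 and 31.2 CPM. Both were called higher, by 4.83 ± 0.35 (log2, edgeR adjusted p = 5.97e-09) and 3.18 ± 0.44 (edgeR adjusted p = 7.31e-06). It was not detected in osteoblasts or in fibroblasts with tcf21 and foxd1 (0 UMIs in both libraries), where a count of 0 allows up to 12.5 and 8.90 CPM and up to 12.6 and 11.6 CPM. Tenocytes had 5 UMIs in library 1 and 0 in library 2. The epidermis comparator exceeded every connective gate, at 140 and 142 CPM, with a UMI in 44.1% and 47.0% of its cells against 0% and 0.973% of neurons. After each cell was thinned to 1000 UMIs the epidermal shares were 12.2% and 12.9%, and those of the gate with dlx genes and shox 8.54% and 4.64% (24.1% and 20.3% unthinned).

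Keratocan, known in mammals as a keratan sulfate proteoglycan of the cornea, was likewise highest outside the connective gates. In epidermis kera stood at 96.0 and 93.0 CPM, with a UMI in 35.9% and 33.9% of cells, or 4.88% and 6.81% after thinning. Neurons had 0.690 and 1.72 CPM and a UMI in 0.285% and 0.778% of cells, at median depths of 3144 and 3249 UMIs against 12037 and 12425 in epidermis. Among connective gates the highest level was 13.2 and 42.2 CPM with cilp and myoc, from 2 and 8 UMIs, 6 of the 8 in 1 cell. Tenocytes had 0 and 7 UMIs and osteoblasts 0 in both libraries. The call for the gate with cilp and myoc (3.79 ± 0.96, edgeR adjusted p = 0.0236) thus rests on 10 UMIs. It was lost in 4 of the alternative settings, and without epidermal markers among the gates the log2 fold change was 0.53 (edgeR adjusted p = 0.833). In the main test kera passed the filter on low counts only through the library 2 sums of the gate with cilp and myoc and of tenocytes.

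Cells meeting the epidermis gate, whatever other gate they met, held 89.6% and 87.5% of all kera UMIs and 77.5% and 77.0% of all fmodb UMIs. The same cells held 28.5% and 25.0% of all UMIs, 14.2% and 11.8% of dcn UMIs and 29.1% and 20.6% of bgna UMIs. Of the cells that met several gates, 41.3% and 32.4% met the epidermis gate. Cells with a UMI of both kera and fmodb numbered 221 and 247, which is 57.2% and 53.4% of kera cells and 37.8% and 34.4% of fmodb cells. Among the 5653 and 7358 kept cells, kera had a UMI in 386 and 463 and fmodb in 584 and 719. Among cells meeting the epidermis gate, other gates allowed, fmodb had a UMI in 48% and 50% and kera in 40% and 39%. The parts of the epidermis gate and of depth in the overlap were not tested.

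**Figure D3:**
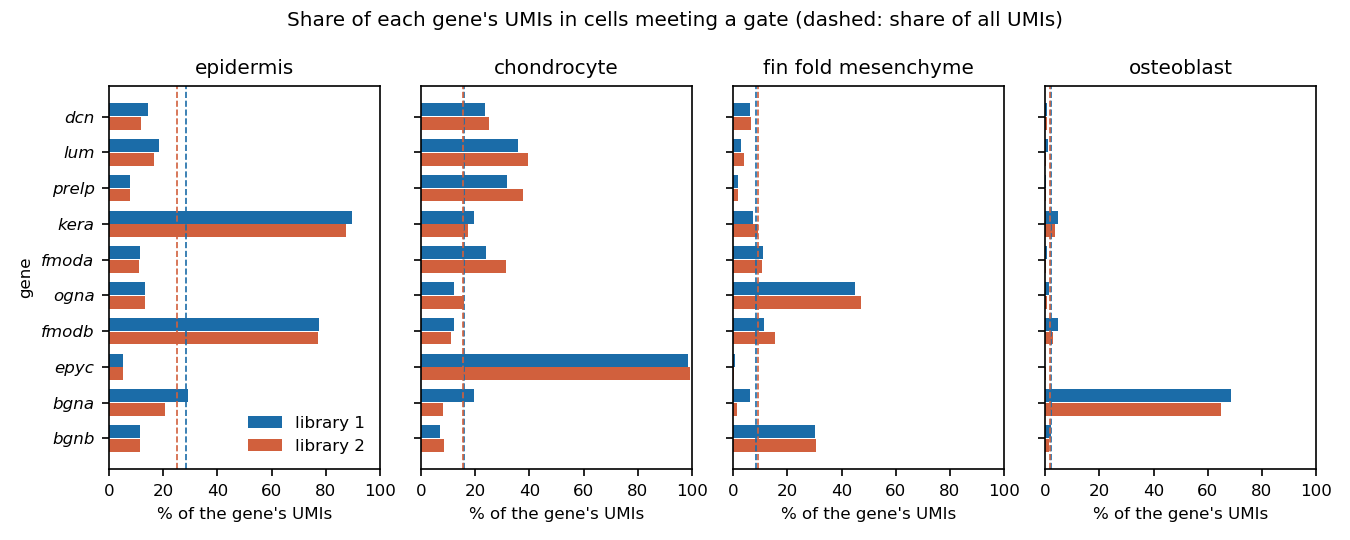
Percentage of each gene's UMIs in cells that met the epidermis, chondrocyte, fin fold or osteoblast gate, other gates allowed, in libraries 1 and 2. Dashed lines mark the share of all UMIs in those cells. The bars pass far beyond the dashed lines for kera and fmodb in epidermis, epyc in chondrocytes (98.7% and 99.2%), ogna and bgnb in fin fold, and bgna in osteoblasts. In chondrocytes lum (35.65% and 39.45%) and prelp (31.58% and 37.79%) also pass the lines (15.63% and 15.35%), by less than epyc.

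Lumican and prelp, which anchor to collagen and, for prelp, to heparan sulfate of basement membranes, followed each other across gates. For lum tenocytes were highest at 238 and 343 CPM, and chondrocytes (170 and 199) and the gate with cilp and myoc (198 and 132) overlapped below them. For prelp the same gates led, with 72.7 and 102 CPM in tenocytes, 72.6 and 21.1 with cilp and myoc and 30.6 and 38.3 in chondrocytes. Tenocyte calls were 2.66 ± 0.33 for lum and 3.80 ± 0.47 for prelp (log2, both at an edgeR adjusted p of 1.48e-05), and chondrocyte calls 2.20 ± 0.22 (edgeR adjusted p = 7.27e-08) and 2.56 ± 0.27 (edgeR adjusted p = 1.43e-07). With gates of 1 marker fewer, the prelp tenocyte value fell to 1.35 (edgeR adjusted p = 0.102). Both genes were low in fin fold mesenchyme. There lum had 18.5 and 13.6 CPM, like neurons at 21.4 and 21.9, and prelp 1 UMI in each library. Those gates were called lower, at -1.82 ± 0.36 and -4.55 ± 0.86. In epidermis lum stood at 48.7 and 56.0 CPM and prelp at 2.47 and 2.30.

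Epiphycan, a cartilage proteoglycan in mammals, was held almost entirely by chondrocytes. The epyc level there was 2359 and 2752 CPM from 8775 and 13801 UMIs, and no other connective gate passed 5.41 CPM. Tenocytes and the gate with cilp and myoc had 0 UMIs in both libraries. Chondrocytes exceeded the other gates by 11.88 ± 0.18 (log2, edgeR adjusted p = 7.13e-20), which again depends on gates near 0. The gene passed the filter on low counts only through its chondrocyte sums, so this p-value is no separate support. A UMI of epyc occurred in 55.5% and 55.6% of the cells of the chondrocyte gate, 43.4% and 44.3% after thinning. Single cells held up to 146 and 155 epyc UMIs. Of all kept cells with an epyc UMI, 44% and 42% also had dcn and 29% and 28% had lum. Among cells meeting the chondrocyte gate, other gates allowed, the shares were 58% and 59% for dcn and 44% and 43% for lum.

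Osteoglycin, also called mimecan, is a class III member found in bone and other connective tissue. It was led by fin fold mesenchyme, the cells that fill the larval fin, with 1275 and 915 CPM from 2972 and 3495 UMIs and a UMI in 64.3% and 58.4% of cells. Tenocytes came next at 826 and 761 CPM, below fin fold in both libraries. The gates with cilp and myoc (310 and 121 CPM) and with dlx genes and shox (215 and 184) overlapped, and chondrocytes had 127 in each. The lowest gate was fibroblasts with tcf21 and foxd1, at 0 and 1 UMI, so the 2 fibroblast gates and tenocytes, all high in dcn, spanned nearly the whole range of ogna. Fin fold was called higher by 4.47 ± 0.22 (log2, edgeR adjusted p = 3.15e-13) and tenocytes by 3.81 ± 0.28 (edgeR adjusted p = 4.88e-09), the latter falling to 1.14 with gates of 1 marker fewer (edgeR adjusted p = 0.216). Higher calls in chondrocytes, with cilp and myoc, and with dlx genes and shox came with levels below the plain average of the others in at least 1 library. Fibroblasts with tcf21 and foxd1 were called lower (-5.91 ± 0.99, edgeR adjusted p = 3.23e-04), a call also lost with gates of 1 marker fewer.

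Across the 11 connective gates, the closest pairs within the family were lum with prelp (Pearson r = 0.886 between mean log2(CPM + 10)) and dcn with lum (r = 0.857). These gates share libraries and depth, so r is a description only. The duplicate copies were not alike, with r of -0.0117 for bgna and bgnb and 0.224 for fmoda and fmodb, and bgna ran against dcn at -0.724. In single cells 77.8% and 81.4% of cells with a lum UMI also had dcn, while 37.7% and 38.1% of dcn cells had lum. Of cells with bgna, 29.5% and 28.4% had bgnb, and of cells with bgnb, 3.18% and 3.50% had bgna. Among the 5653 and 7358 kept cells, dcn had a UMI in 2451 and 3303 and lum in 1186 and 1547. For bgnb these numbers were 723 and 944, and for bgna 78 and 116. The part of depth in these shares was not tested.

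Several of these genes are neighbours in the genome. In the RefSeq annotation of the GRCz12tu assembly, epyc, kera, lum and dcn stand in a row among protein-coding genes, fmoda is separated from prelp by zgc:113307, and ogna is followed by the family genes omd, aspn and ecm2. The adjacent genes did not share a highest connective gate throughout: it was the chondrocyte gate for epyc, the gate with cilp and myoc for kera (from 10 UMIs, and below epidermis), and tenocytes for lum and dcn. Correlations over gates were 0.857 between the neighbours lum and dcn, 0.673 between kera and lum, and -0.068 between epyc and kera.

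The genes outside the family whose pattern was most like each member differed by member. For dcn they were ccl25b (r = 0.898), wfdc1 (0.896) and thbs1a (0.889), over 11 gates and 3060 candidate genes. For lum the closest was col5a1 (0.929), a chain of the fibril collagen type V, then ebf3a (0.889), and for prelp ucmaa (0.968) and tnn (0.901). The cartilage pattern of epyc was met at 0.997 by CLEC3A and si:dkey-262k9.2 and at 0.996 by acanb, an aggrecan gene. For bgna the genes were si:dkey-32e6.6 (0.992), cd81b (0.992) and phospho1 (0.988), a phosphatase of mineralizing matrix. For bgnb they were chmp5b (0.850), ccnl1a (0.836) and itgav (0.832), an integrin chain. Those for ogna were cyp26b1 (0.922), which degrades retinoic acid, angptl7 (0.901) and CU929237.1 (0.896). For kera they were olfml2bb (0.942), meox1 (0.930) and fgl1 (0.913), for fmoda hhla2a.1 (0.868), tnn (0.833) and lrp1aa (0.832), and for fmodb ptgr1 (0.900), spred2b (0.891) and gas1a (0.839).

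Other genes of the family and of proteoglycan assembly were counted in the same gates. Of 13 other family genes listed, 10 were in the files and 4 passed the filter on low counts. Asporin (aspn), a class I member, was highest in tenocytes at 462 and 285 CPM (log2 fold change 3.56, edgeR adjusted p = 5.12e-07). Chondroadherin (chad), a cartilage protein that binds collagen, was highest in chondrocytes at 41.4 and 42.9 CPM (log2 fold change 6.33, edgeR adjusted p = 1.42e-09). It passed the filter on low counts only through its chondrocyte sums, so that p-value is no separate support. Enzymes and transporters that build chondroitin and dermatan sulfate were higher for 12 of 14 tested genes in chondrocytes and 7 of 14 in fin fold, with 0 lower in each. Their median log2 fold changes were 2.40 and 0.68, against 0.09 and 0.06 over all genes. They include xylt1, which starts the chain, and papss2b, which makes the sulfate donor, and xylt1 stood at 105 and 128 CPM in chondrocytes. In tenocytes edgeR called 0 of 14 in either direction (0 at an unadjusted p under 0.05). Fibril collagens and collagens on fibrils were higher for 11 of 18 in tenocytes and 8 of 18 with cilp and myoc, with 0 lower and medians of 2.12 and 0.88 against 0.00467 and -0.02 over all genes. Of collagen processing enzymes and binding partners, 10 of 17 were higher and 1 lower in chondrocytes. Tested genes are those that passed the filter on low counts. They were 14 of 31 listed chondroitin and dermatan sulfate genes, 18 of 20 collagens and 17 of 30 processing and partner genes. In chondrocytes chst3a (27.4 and 33.1 CPM) and pcolceb (430 and 532 CPM) passed it only through their chondrocyte sums, so their calls are no separate support. How many other listed genes did so was not counted. The counts of higher and lower genes stand beside the gates' shares of all genes given above, and none of them was tested as a list.

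The um148 libraries were compared with wild-type by the authors, and the wild-type libraries are not samples of the series. The authors' deposited table gives normalized counts for the 3 um148 libraries, and the wild-type mean quoted here is the um148 mean divided by the deposited fold change. That table holds no standard errors, so each ± beside its log2 fold changes was derived here from its test statistic. The 3 libraries held 16848358, 19440480 and 21437870 reads in listed genes, and the 10 proteoglycan genes took 0.294%, 0.350% and 0.326% of the normalized totals. Their spread between libraries was a median SD of log2(value + 1) of 0.321 against 0.371 over all genes. In the authors' deposited table, pdgfrb, the gene behind the reporter, had a log2 fold change of -1.21 ± 0.30 (um148 over wild-type, adjusted p = 0.0014), with 4852, 5357 and 3845 in libraries 1, 2 and 3.

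Of the 10 genes, 1 was called in the authors' deposited table at an adjusted p under 0.05, where 11.3% of 16853 genes were called, 5.13% lower and 6.18% higher. By sign 6 of the 10 were lower in um148, against 48.9% of all genes, and their median log2 fold change was -0.14 against 0.02 for all genes. The called gene was prelp. Its normalized counts were 1363, 1262 and 1623 in um148 libraries 1, 2 and 3, a mean of 1416 ± 186 (SD, n = 3), and the implied wild-type mean was 2656. All 3 libraries lay below that mean. The authors' deposited table gives prelp a log2 fold change of -0.91, with a standard error of 0.26 derived from its test statistic and an adjusted p of 0.00771. Leaving out 1 um148 library in turn gave -0.88, -0.83 and -1.02. Among markers of the 3 gates highest in prelp, 0 of 5 tenocyte, 0 of 8 chondrocyte and 0 of 5 markers of the gate with cilp and myoc were called in either direction in the authors' deposited table, and 1, 0 and 1 had an unadjusted p under 0.05. Their median log2 fold changes in the authors' deposited table were -0.44, 0.21 and -0.54. By sign 3, 2 and 4 of them were lower. Those with an unadjusted p under 0.05 were thbs4b (authors' deposited table, -0.81, adjusted p = 0.0967) and cilp2 (authors' deposited table, -1.10, adjusted p = 0.0538). The part of these in the prelp value was not tested.

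Both biglycan copies and ogna were also below the implied wild-type mean in all 3 um148 libraries, without passing. Normalized counts of bgnb were 2415, 3523 and 4081, against an implied wild-type mean of 6650, and the authors' deposited table gives -0.99 ± 0.41 with an adjusted p of 0.0966. Those of bgna were 133, 82.9 and 121 against 249 (authors' deposited table, -1.15 ± 0.48, adjusted p = 0.106). Some markers of the pericyte and osteoblast gates were lower: 4 of 7 pericyte markers (kcne4, ndufa4l2a, kcnj8 and rgs5b, with log2 fold changes from -2.97 to -1.05) and 3 of 9 osteoblast markers (spp1 at -2.32, col10a1a at -1.09 and ifitm5 at -0.99) were called lower in the authors' deposited table, and 0 higher. The pericyte markers abcc9 (0.72) and notch3 (0.11) and the osteoblast marker runx2b (0.31) were above 0 there without passing. Fin fold and fibroblasts with tcf21 and foxd1 were the other gates called higher in bgnb. Of their markers 0 of 3 and 0 of 5 were called in the authors' deposited table, with median log2 fold changes of -0.45 and 0.24. The part of these in the biglycan values was not tested. For ogna the counts were 4308, 5885 and 5369 against 7947, and the authors' deposited table gives -0.62 ± 0.27 with an adjusted p of 0.126. The 3 fin fold markers listed had log2 fold changes from -0.48 to -0.34, and 0 was called.

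Decorin and lumican differed little. Normalized counts of dcn were 15457, 13428 and 14416, within 1.15-fold of each other, against an implied wild-type mean of 16690 (authors' deposited table, -0.21 ± 0.26, adjusted p = 0.673). Those of lum were 6064, 3629 and 6807 against 5760, on both sides of the wild-type mean (authors' deposited table, -0.07 ± 0.43, adjusted p = 0.945). Epiphycan varied most among the abundant members, at 12915, 32540 and 27374 against 20316 (authors' deposited table, 0.26 ± 0.38, adjusted p = 0.730). Leaving out library 1, 2 or 3 gave epyc a log2 fold change of 0.56, -0.01 or 0.16. Of 8 chondrocyte markers 7 were lowest in um148 library 1 as well, for example matn1 at 30923, 92579 and 87306, while matn3a was highest there at 128, 24.0 and 49.5, and the part of this in the epyc values was not tested.

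Members that were high in epidermis, and fmoda, lay above the implied wild-type mean in all 3 libraries without passing. The counts of kera were 403, 425 and 979 against 339 (authors' deposited table, 0.83 ± 0.43, adjusted p = 0.208). Library 3 held 2.43 times the count of library 1, and without library 3 the log2 fold change of kera was 0.29. The counts of fmodb were 742, 863 and 1097 against 553 (authors' deposited table, 0.70 ± 0.37, adjusted p = 0.211), and those of fmoda 6206, 6261 and 7252 against 4781 (authors' deposited table, 0.46 ± 0.41, adjusted p = 0.512). Of 6 epidermal markers, cdh1 was called higher (1.32) and epcam lower (-1.33) in the authors' deposited table, with a median of 0.97 over the 6. Their part in the kera and fmodb values was not tested. Of skeletal muscle markers, 3 of the 5 that have an adjusted p were called higher in the authors' deposited table. Over those 5 the median log2 fold change was 2.89, with ryr1b at 0.66 and tnnt3b at 0.22 without passing. The part of the muscle markers in the 10 genes' values was not tested either.

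**Figure D4:**
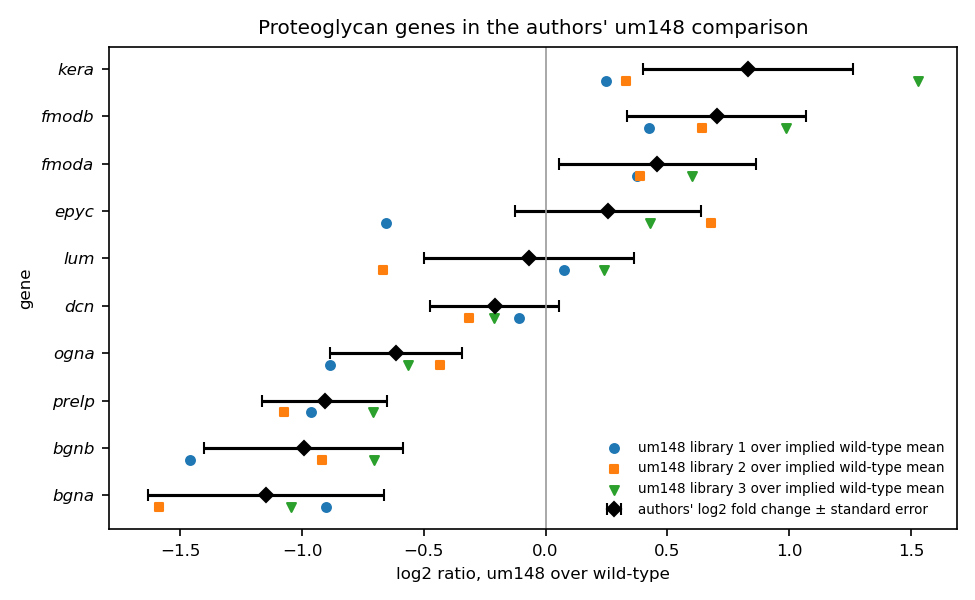
Log2 ratio of um148 over wild-type for each of the 10 genes. Diamonds are the authors' log2 fold change, bars a standard error derived from their test statistic, and coloured symbols each um148 library over the implied wild-type mean. Genes are ordered by fold change: bgna, bgnb, prelp, ogna and dcn have all 3 libraries below 0, fmoda, fmodb and kera all 3 above, and lum and epyc lie on both sides.

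Among related genes in the authors' deposited table, 1 of 7 other family genes was called, omd, the neighbour of ogna, at normalized counts of 93.8, 60.9 and 63.4 and a log2 fold change of -1.31 with an adjusted p of 0.04996, at the edge of the threshold. The class I gene aspn stood at 1825, 1497 and 2124 against an implied 3266, a log2 fold change of -0.85 in the authors' deposited table that did not pass (adjusted p = 0.0963). Of 26 chondroitin and dermatan sulfate genes, ugdh, which makes a sugar donor for the chains, was lower (-1.05, adjusted p = 0.00977) and the sulfotransferase gene chst7 higher (2.14, adjusted p = 2.75e-05) in the authors' deposited table. Of the 9 keratan sulfate genes and the 20 fibril collagens 0 were called at the threshold, and 1 and 5 had an unadjusted p under 0.05 in the authors' deposited table. Of 25 processing enzymes and binding partners 4 were higher and 1 lower in the authors' deposited table. The higher ones were the TGF-beta receptor genes tgfbr1b (4.47) and tgfbr1a (1.34), the procollagen protease gene adamts14 (3.93) and tll1 (1.05). Counts of tgfbr1b were 494, 495 and 654 in um148 against an implied wild-type mean of 24.7. The lower gene was loxa (-1.03), a collagen cross-linking enzyme. The shares called were 14.3% of other family genes, 7.69% of chondroitin and dermatan sulfate genes and 20% of processing enzymes and binding partners. Over all genes 11.3% were called, 5.13% lower and 6.18% higher, and no list was tested as a set.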

How the data were processed

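Both single-cell matrices hold deposited raw UMI counts, and the submitters' processing notes name Cell Ranger 3.1.0, CASAVA 1.8.2, STAR, RSEM, DESeq2 and the GRCz11 build, with no role or order. For the bulk libraries the deposited columns hold a normalized signal: each value is a whole number of reads (100% of values within 0.01) divided by 1 factor per library. The authors' deposited table also gives, per the file headers, a log2 fold change, its linear ratio, a test statistic (a score), the p-value before and after adjustment, and the −log10 of the latter. Its direction was read from the values. Dividing each um148 mean by its ratio gives a summed wild-type level of 20284258, beside 19212955 for um148, whereas multiplying gives 91949403. Standard errors are the log2 fold change divided by the square root of the statistic, a reading that was not tested. The 3 wild-type columns belong to no sample of the series and were not used.

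Barcodes with under 500 genes or over 10% of UMIs from 13 mitochondrial genes were removed. Scrublet (scanpy 1.11.5, 2 simulated doublets per barcode, 30 components) marked 0 barcodes by its threshold, so the top 282 and 493 scores were removed, 0.8% per 1000 barcodes. Library totals were 70247500 and 77896721 UMIs, and kept cells had medians of 5689 and 6062. Counts were summed per library and gate and fitted with edgeR 4.0.16 (R 4.3.3), with TMM scaling factors and with library as a replicate block. On simulated counts for the chondrocyte comparison this fit was tested for recovery of known folds. Intervals (95% Poisson) and floors (3 counts in a gate and library) cover counting error only. The libraries pair the gates, since each library supplies cells of every gate.

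The members and lists were chosen with earlier results of these data known. The gate minimums of 3 markers and of 10 cells per library were set after cell numbers and levels had been seen. All members were named, with the 3 genes most like each (r over 11 gates, at least 50 CPM in a gate in both libraries) and, from each list, up to 4 genes called by the authors. List genes named from the gates, and loxa, aspn and the gate markers named in um148, were chosen after their values were seen. Of the 11 connective gates, 1 entered the fit and the totals but is not reported here. No sequence is shown and no coordinate is given.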

Additional observations from a re-analysis of the deposited data

Results flagged for a closer look

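Barcodes removed for mitochondrial RNA were used in no comparison, and they held proteoglycan RNA. In single-cell library 1 the 3976 removed barcodes held 6000 UMIs of the 10 genes, or 407 CPM, against 926 CPM in kept cells and 171 CPM in the neuron gate. In library 2 the 407 removed barcodes held 827 UMIs, or 430 CPM, against 985 and 137 CPM. Both were looked at again because they lie outside the main measurement and above the neuron level. By gene, dcn stood at 91.2 and 99.3 CPM in removed barcodes against 220 and 239 in kept cells, and epyc at 69.5 and 32.2 against 212 and 247. For fmoda the removed barcodes of library 2 were above the kept cells, at 153 against 137 CPM, while in library 1 they were below, at 72.8 against 110. Removed barcodes held fmodb at 7.05 and 24.4 CPM against 46.6 and 41.9, and kera at 15.4 and 7.80 against 28.3 and 26.8. With a mitochondrial limit of 20% the epidermis gate held 1275 and 564 cells, against 451 and 543 in the main setting. The part of this limit in the epidermal levels of kera and fmodb was not tested.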

How the results depend on the processing

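The main test called 29 pairs of gene and gate higher and 12 lower. Higher calls numbered 15 with gates of 1 marker more and 19 with 1 marker fewer, and 15 with gates of over 100 cells only. With 1 marker more 26 of the 41 called pairs could be tested and 21 were kept, and with the large gates 20 and 19. Lower calls numbered 19 with no filter on low counts. Without the replicate block 27 were higher and 12 lower, DESeq2 gave 27 and 15, and gates without epidermal markers gave 27 and 10. This last setting and the large gates were chosen after the data were seen. No called pair changed sign in the settings where it was tested. Calls lost were at most 14 of 41, with gates of 1 marker fewer, and their cause was not tested. Among single values 50 lost their call and 517 kept it or moved little. These 517 include values with a library left out, judged against the SD of the same few libraries. A larger shift could hardly occur there, so those values say nothing about stability. Of the 30 most alike genes, 17 remained with a pseudocount of 1 and 8 with Spearman's rho, so these names depend on the measure. At an adjusted p under 0.1, 2 genes passed in um148, prelp and bgnb. Leaving out 1 um148 library in turn moved the members' median SD of log2(value + 1) from 0.321 to between 0.201 and 0.236. Leaving out a single-cell library leaves no residual degrees of freedom, so only levels were compared: the highest gate was the same for 10 of 10 genes in library 1 alone and 8 of 10 in library 2 alone, where fmoda and bgnb differed. The smallest connective gate, that with colec11, had 10 and 14 cells, which limits what a count of 0 can show.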

Other observations

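The gene most like bgna across the connective gates, si:dkey-32e6.6 (r = 0.992), is the annotated protein-coding neighbour of bgnb, the other biglycan copy, in GRCz12tu. It stood at 577 and 273 CPM in osteoblasts, where bgna had 552 and 481 CPM and bgnb 41.8 and 32.6 CPM. This pair was noticed after the values were seen, and nothing about it was tested.

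Cells that met no gate were 46.8% and 45.7% of the kept cells. Their dcn level was 320 CPM in each library, beside 329 and 362 CPM in chondrocytes and 220 and 239 over all kept cells. Their prelp level was 17.4 and 18.6 CPM against 12.0 and 14.3 over all kept cells. For fmoda it was 140 and 139 CPM against 110 and 137. These cells held 47.9% and 45.4% of dcn UMIs, 47.9% and 44.1% of prelp UMIs and 42.1% and 34.5% of fmoda UMIs. By contrast they held 0.871% and 0.522% of epyc UMIs and 5.78% and 6.84% of kera UMIs. Osteomodulin (omd), the neighbour of ogna, had 3 and 32 UMIs in tenocytes (19.8 and 142.5 CPM) and did not pass the filter on low counts.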
